A study of Drosophila melanogaster with 23 samples.

Results

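Nascent RNA was compared between Kc167 cells that received an siRNA against AGO2 together with either its catalytic mutant or its wildtype form. The comparison rested on 4 of the 23 libraries of the series, chosen by their labels: 2 of si5UTR+V966M (replicates 2 and 3) and 2 of si5UTR+AGO2 (replicates 1 and 2). Both groups came from the female embryonic Kc167 line and received an siRNA against the AGO2 5′UTR together with an AGO2 cDNA construct tagged at its N-terminus with Flag and HA. In si5UTR+V966M the construct carried the substitution V966M, and in si5UTR+AGO2 it was wildtype. The same experiment held 2 libraries of si5UTR (the siRNA with no construct) and 2 of mock-transfected cells (mock), 8 libraries in all. The share of cells that took up a construct is not given in the sources used here, and a library of the siRNA with an empty plasmid was not analysed here. New transcripts were marked over 1 h with 0.2 mM 5-ethynyl uridine. They were then biotinylated (0.25 mM biotin azide), pulled down on beads and read as 50 bp single reads (neuRNA-seq).

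AGO2 is the Argonaute protein that carries small interfering RNAs (siRNAs) in flies. Dcr-2 cuts long double-stranded RNA into siRNAs, which are loaded into AGO2 with the help of dsRNA-binding partners and chaperones, and AGO2 then cuts (slices) RNAs that pair with its guide through an RNase H-like fold in its PIWI domain. A slicing mutant can still be present in the cell and bind its partners, so that a comparison with the wildtype construct asks which genes depend on the slicing activity. The substitution V966M is numbered on the AGO2 protein of 1214 residues in the RefSeq annotation, where that position is a valine. Its codon lies on chromosome 3L from 15559829 to 15559831 (dm6, plus strand), and is shown here because it is the difference between the constructs. In the reference sequence around it, chr3L:15559817-15559843, the capitals mark the valine codon, and the codon before it (gat) is that of an aspartate of the catalytic site.
AGO2 V966M site: attggagccgatGTGacccatccctct

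Total counts ranged from 10061474 to 15641835 reads over the 8 libraries of the experiment. No library was a repeat of another. Of the 8, si5UTR+V966M replicate 2 stood most apart, with 561 genes more than 1 log2 unit from the median of the libraries, and si5UTR+AGO2 replicate 2 followed with 457, against 215 to 326 in the others. Most of these genes were low in count, with a median of 21.25 mean reads for the 561 and 18.375 for the 457. The same 2 libraries had reads in the fewest genes, 8290 and 8423, against 8660 to 9106 in the others. Haemocyte genes marked the line in every library (summed level 6023 to 7807 CPM, reads per 1000000 of the scaled library), while the markers of germline and testis summed to 95.6 to 116 CPM. The samples are described as biological replicates, and with 2 a side the p-values measure only the spread between these libraries. In bulk RNA, fewer cells making a transcript and less of it made per cell cannot be told apart.

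AGO2 itself was examined first. It had 379 and 432 CPM in si5UTR+V966M, against 480 and 427 CPM in si5UTR+AGO2, 159 and 161 CPM in si5UTR and 282 and 321 CPM in mock. Both constructs thus gave more AGO2 reads than mock, and the groups with a construct overlapped each other. The log2 fold change between them was -0.16 (SE 0.110, edgeR adjusted p 0.693). Reads of the construct and of the endogenous gene (FBgn0087035, 3L from 15554113 to 15561042) were counted together, and no protein level was analysed here. AGO2 reads remained in si5UTR, so cells with either construct may still have held endogenous AGO2. For RpL32, a ribosomal protein gene used as a reference, the change was 0.07 on the log2 scale (SE 0.158, edgeR adjusted p 0.951).

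Few genes were called between the constructs. Of 8727 genes tested, 7 were higher and 7 lower in si5UTR+V966M than in si5UTR+AGO2 at an adjusted p under 0.1, which is 0.16% of the genes in either direction and 0.0802% in each. Their absolute log2 fold changes ran from 0.34 to 1.76. At an unadjusted p under 0.05 edgeR gave 370 higher (4.24%) and 401 lower (4.59%). Together these were 771 genes, against 436.35 expected if no gene changed. The 2 groups did not overlap in 35.4% of all genes tested. With 2 libraries a side, a gene without a call may still differ. The higher genes were Gadd45, Socs36E, ImpL2, cv-2, Tep4, asRNA:CR46089 and the rRNA pseudogene 28SrRNA-Psi:CR41609. The lower genes were Pxn, Hml, Ppn, LanA, eIF4EHP, CG41520 and the rRNA pseudogene 28SrRNA-Psi:CR40741.

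**Figure D1:**
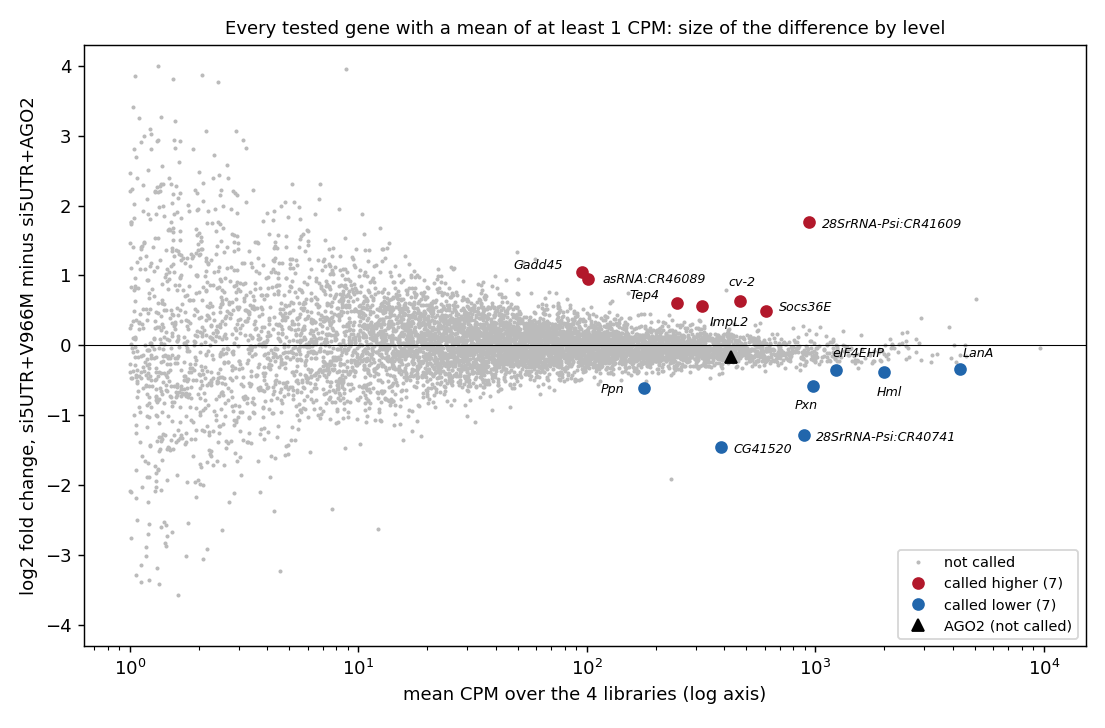
Log2 fold change of si5UTR+V966M minus si5UTR+AGO2 (vertical axis) against mean CPM over the 4 libraries (horizontal, log axis), 1 point per tested gene. The 7 genes called higher and 7 called lower are named, AGO2 is the triangle near 0, and 970 genes with a mean under 1 CPM or a change beyond 4.2 are not drawn.

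The count of calls depended on single libraries and on the method. Without si5UTR+V966M replicate 2 the counts were 1 higher and 5 lower, and without si5UTR+V966M replicate 3 they were 46 and 72. Without si5UTR+AGO2 replicate 2 they were 4 and 5, and without either si5UTR library 7 and 4. With replicate 2 of both constructs left out, which leaves 1 library a side, the counts were 1 and 5, and 2 of the 14 genes remained called. DESeq2, the tool of the study, gave 22 higher and 64 lower (6.1% of 1410 genes with an adjusted p), among them 11 of the 14. It gave no adjusted p for Gadd45 and asRNA:CR46089, which fell under its filter. In no alternative did any of the 14 change its direction. With gene length and GC content modelled for each library there were 10 higher and 2 lower genes, and all 7 higher genes kept their call but only Pxn and 28SrRNA-Psi:CR40741 among the lower ones did.

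**Figure D2:**
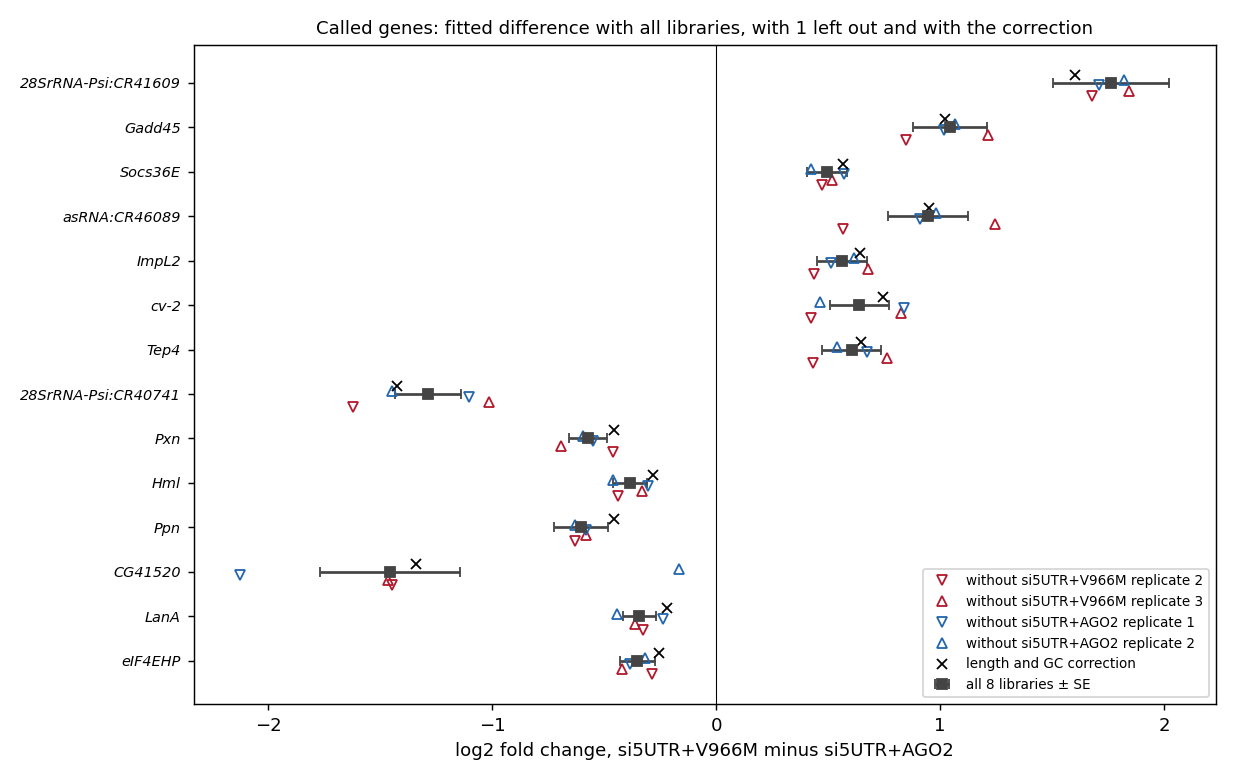
Fitted log2 fold change of each called gene (horizontal axis), with all 8 libraries (squares, bars are SE), with 1 library of either construct left out (triangles) and with the length and GC correction (crosses). All marks of a gene lie on the same side of 0, and CG41520 moves to -0.17 without si5UTR+AGO2 replicate 2.

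Of the higher genes, Gadd45, ImpL2, cv-2, Tep4 and asRNA:CR46089 are given first. Gadd45, a stress-induced gene of the growth arrest and DNA damage family (FBgn0033153, 2R from 7249161 to 7250655), had 145 and 112 CPM in si5UTR+V966M, against 61.3 and 63.4 CPM in si5UTR+AGO2. In si5UTR it had 123 and 136 CPM and in mock 63.5 and 80.5 CPM. The mutant libraries were thus at the level of the siRNA alone and the wildtype libraries near mock. Its log2 fold change was 1.04 (SE 0.164, edgeR adjusted p 0.00378), and its call was lost without si5UTR+V966M replicate 2 (adjusted p 0.160).

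ImpL2, which encodes a secreted protein that binds insulin-like peptides and holds back insulin signalling (3L from 4224006 to 4236147), had 413 and 349 CPM in si5UTR+V966M, against 249 and 267 CPM in si5UTR+AGO2, 368 and 350 CPM in si5UTR and 291 and 313 CPM in mock. The log2 fold change was 0.56 (SE 0.110, edgeR adjusted p 0.0383). Here the wildtype libraries lay below mock as well. cv-2, which encodes a secreted BMP-binding protein (2R from 21355015 to 21379464), had 648 and 490 CPM in si5UTR+V966M, against 412 and 319 CPM in si5UTR+AGO2, 651 and 815 CPM in si5UTR and 366 and 365 CPM in mock. Its log2 fold change was 0.64 (SE 0.131, edgeR adjusted p 0.0527). The mutant libraries spread more widely here, with replicate 3 closer to the wildtype ones.

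Tep4, a gene of secreted thioester proteins of the immune response (2L from 19548507 to 19556451), had 333 and 265 CPM in si5UTR+V966M, against 206 and 187 CPM in si5UTR+AGO2, 308 and 368 CPM in si5UTR and 194 and 235 CPM in mock. The log2 fold change was 0.61 (SE 0.132, edgeR adjusted p 0.0848). asRNA:CR46089, an RNA that overlaps p53 on the opposite strand (3R from 23052916 to 23057984, counted by strand), had 165 and 103 CPM in si5UTR+V966M, against 67.6 and 71.2 CPM in si5UTR+AGO2, 148 and 176 CPM in si5UTR and 95.2 and 78.8 CPM in mock. Its log2 fold change was 0.94 (SE 0.178, edgeR adjusted p 0.0319). Both genes again separated the constructs, with si5UTR+V966M replicate 2 the higher mutant library. The calls of ImpL2, Tep4 and asRNA:CR46089 were each lost without si5UTR+V966M replicate 2, si5UTR+AGO2 replicate 1 or si5UTR+AGO2 replicate 2, at adjusted p up to 0.551, 0.681 and 0.668. The call of Tep4 was lost without either si5UTR library too. The call of cv-2 was lost without replicate 2 of either construct (up to 0.681).

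The Jak-STAT pathway runs in flies from the Unpaired cytokines through the receptor Domeless and the kinase Hopscotch to the transcription factor Stat92E, and Socs genes are among its targets and restrain it. Of 9 pathway genes tested, 1 was called (against 0.16% of all genes), which was Socs36E. Socs36E (2L from 18138675 to 18152417) had 726 and 705 CPM in si5UTR+V966M, against 533 and 481 CPM in si5UTR+AGO2, 792 and 868 CPM in si5UTR and 480 and 478 CPM in mock. The mutant libraries lay between those of the siRNA alone and those of the wildtype construct, which was at the mock level. On the log2 scale the difference was 0.50 (SE 0.0903, edgeR adjusted p 0.0248), and the call was lost without si5UTR+V966M replicate 2 or si5UTR+AGO2 replicate 2 (adjusted p up to 0.373).

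Of the ligands, upd3 was next by p among genes not called, with 234 and 147 CPM in si5UTR+V966M, against 97.6 and 129 CPM in si5UTR+AGO2, 178 and 217 CPM in si5UTR and 114 and 114 CPM in mock. The difference on the log2 scale was 0.75 (SE 0.174, edgeR adjusted p 0.113). upd2 was low and overlapped between the constructs, at 10.3 and 7.65 CPM in si5UTR+V966M against 8.16 and 3.75 CPM in si5UTR+AGO2. The receptor gene dome was at a log2 fold change of 0.07 (SE 0.142), the kinase gene hop at -0.07 (SE 0.110) and Stat92E at -0.15 (SE 0.0811), with edgeR adjusted p of 0.945, 0.921 and 0.593. At an unadjusted p under 0.05 the higher members were Socs36E and upd3 (2 of 9, against 4.24% of all genes). A STAT consensus (TTCNNNGAA, which reads the same on both strands) was searched from 250 bases before to 50 bases after each gene's start. It was found at 0 of the 14 called genes, against 775 of 8586 tested genes (9.03%). That says only that these letters are not in this window.

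**Figure D3:**
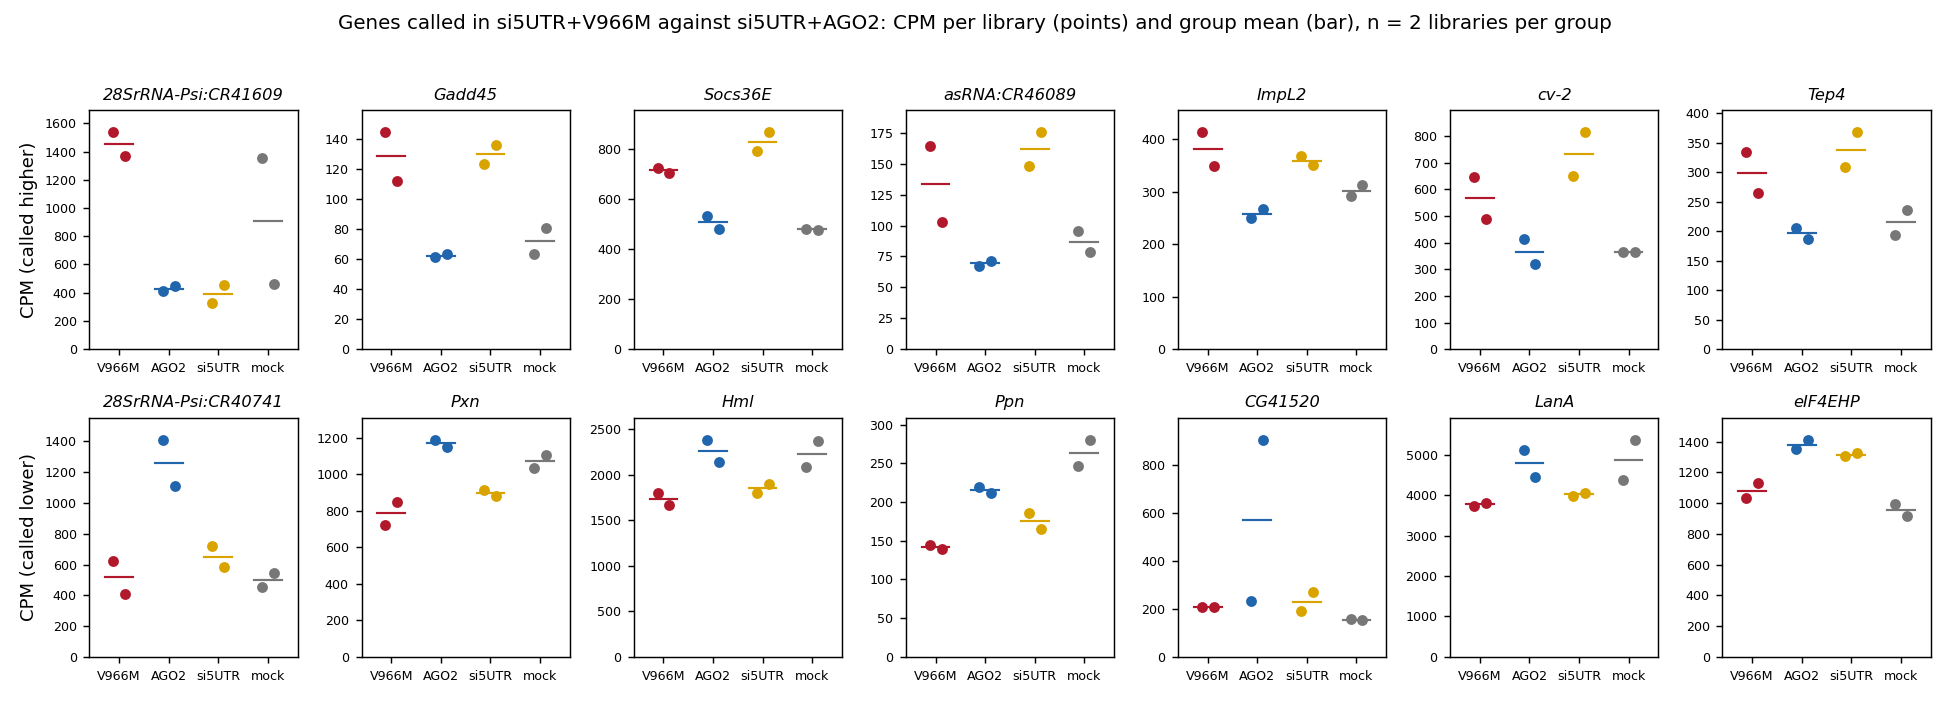
CPM of each called gene in each library (points) with the mean of each group (bars, n = 2), in si5UTR+V966M, si5UTR+AGO2, si5UTR and mock from left to right. The upper row holds the 7 genes called higher and the lower row the 7 called lower, and each axis starts at 0.

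Of the 7 lower genes, 3 were on the haemocyte list, which were Pxn, Hml and Ppn, and LanA is given with them. Haemocytes are the blood cells of the fly and make much of its laminin, type IV collagen and collagen-linking enzymes. Pxn, the peroxidase that links collagen IV (3L from 2601455 to 2630064), had 722 and 849 CPM in si5UTR+V966M, against 1187 and 1151 CPM in si5UTR+AGO2, 915 and 879 CPM in si5UTR and 1034 and 1107 CPM in mock. The fitted change was -0.57 on the log2 scale (SE 0.0858, edgeR adjusted p 0.00245), and it stayed called without each library in turn (adjusted p up to 0.0946). The gene overlaps lncRNA:CR45660 and lncRNA:CR45981 on its strand, so its count can be affected by them.

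Hml, the clotting protein hemolectin and a marker of haemocytes (3L from 13846054 to 13860001), had 1794 and 1665 CPM in si5UTR+V966M, against 2381 and 2138 CPM in si5UTR+AGO2, 1803 and 1896 CPM in si5UTR and 2083 and 2365 CPM in mock. The log2 fold change was -0.39 (SE 0.0751, edgeR adjusted p 0.0383). Ppn, the matrix protein papilin (3R from 28520665 to 28540324), had 144 and 139 CPM in si5UTR+V966M, against 219 and 211 CPM in si5UTR+AGO2, 185 and 165 CPM in si5UTR and 246 and 280 CPM in mock. On the log2 scale the difference was -0.61 (SE 0.121, edgeR adjusted p 0.0448). LanA, the laminin alpha chain (3L from 6203831 to 6218022), had 3728 and 3816 CPM in si5UTR+V966M, against 5122 and 4453 CPM in si5UTR+AGO2, 3983 and 4056 CPM in si5UTR and 4366 and 5372 CPM in mock. The difference on the log2 scale was -0.34 (SE 0.0742, edgeR adjusted p 0.0848). For Pxn, Hml, Ppn and LanA, both mutant libraries lay below all 6 other libraries of the experiment. These genes were called for a lower level than in si5UTR+AGO2, and the share of all genes in this order was not counted. Hml, Ppn and LanA lost their call with the length and GC correction, at adjusted p of 0.261, 0.265 and 0.458, while their log2 fold changes stayed below 0, at -0.28, -0.46 and -0.22. Hml lost it without si5UTR+AGO2 replicate 1, Ppn without si5UTR+V966M replicate 2 or either si5UTR+AGO2 library, and LanA without si5UTR+V966M replicate 2, si5UTR+AGO2 replicate 1 or either si5UTR library.

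Most other members of these groups were below 0 without a call. Of 11 haemocyte genes tested, 9 were below 0, 3 were called lower (against 0.0802% of all genes), 0 higher, and 6 were lower at an unadjusted p under 0.05 (against 4.59% of all genes). The median log2 fold change was -0.39, against -0.0051 over all genes. It was -0.35 with the length and GC correction. Without si5UTR+V966M replicate 3, the mutant library with the smaller shift, it was -0.58. The shift thus rested more on si5UTR+V966M replicate 2, the library that stood most apart. Summed over its members, the list had 6023 to 6335 CPM in si5UTR+V966M, against 7439 to 7807 CPM in si5UTR+AGO2, 6625 to 6768 CPM in si5UTR and 7192 to 7775 CPM in mock. Both mutant libraries were below all 6 others in this sum, most of which came from Hml, srp, ush and Pxn. By the median log2 level of the list against the mean of the 8 libraries they differed, at -0.42 in replicate 2 and -0.15 in replicate 3 of si5UTR+V966M, against 0.19 and 0.13 in si5UTR+AGO2, 0.02 and -0.14 in si5UTR and 0.06 and 0.25 in mock. Replicate 3 of the mutant was thus close to 1 of the si5UTR libraries. The haemocyte factor ush, a partner of the GATA factor srp, was at -0.25 on the log2 scale (SE 0.0678, edgeR adjusted p 0.234), and srp itself at -0.09 (SE 0.0751, edgeR adjusted p 0.746). Col4a1, a chain of collagen IV, had 8.11 and 12.5 CPM in si5UTR+V966M, against 26.5 and 21.7 CPM in si5UTR+AGO2, 19.7 and 23.5 CPM in si5UTR and 20.2 and 29.1 CPM in mock (log2 fold change -1.22, SE 0.314, edgeR adjusted p 0.200).

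Of 15 genes of basement membrane and matrix, a list chosen after values were seen, 3 were called lower, which were Pxn, Ppn and LanA, and 8 were lower at an unadjusted p under 0.05 (against 0.0802% and 4.59% of all genes). These counts include the calls that prompted the list. The other laminin chains, LanB1 and LanB2, were at -0.32 (SE 0.0794, edgeR adjusted p 0.143) and -0.27 (SE 0.0951, edgeR adjusted p 0.367). The protease gene Mmp1 ran the other way, with 369 and 331 CPM in si5UTR+V966M, against 292 and 254 CPM in si5UTR+AGO2 (log2 fold change 0.36, SE 0.112, edgeR adjusted p 0.320). Gene length moved with the lower calls. In 5 groups of genes by length, the median log2 fold change was 0.10 in the shortest and -0.08 in the longest, which held 6 of the 7 lower genes and 3 of the 7 higher ones. Markers of some other cell types had lower sums too. These were 147 to 176 CPM in si5UTR+V966M against 194 to 195 CPM in si5UTR+AGO2 for neuron and glia, 382 to 401 against 434 to 444 CPM for muscle, 99.7 to 107 against 117 to 119 CPM for epithelium and ectoderm, and 223 to 224 against 243 to 256 CPM for crystal cell and lamellocyte. For germline and testis the sums overlapped, at 95.6 to 116 CPM in si5UTR+V966M against 107 to 115.2 CPM in si5UTR+AGO2, and in muscle 4 of 6 genes were above 0. In these lists 0 genes were called. At an unadjusted p under 0.05 edgeR gave 1 lower in each of neuron and glia (of 5), muscle (of 6), and epithelium and ectoderm (of 7), against 4.59% of all genes. The part of other cell types in the haemocyte result was not tested.

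**Figure D4:**
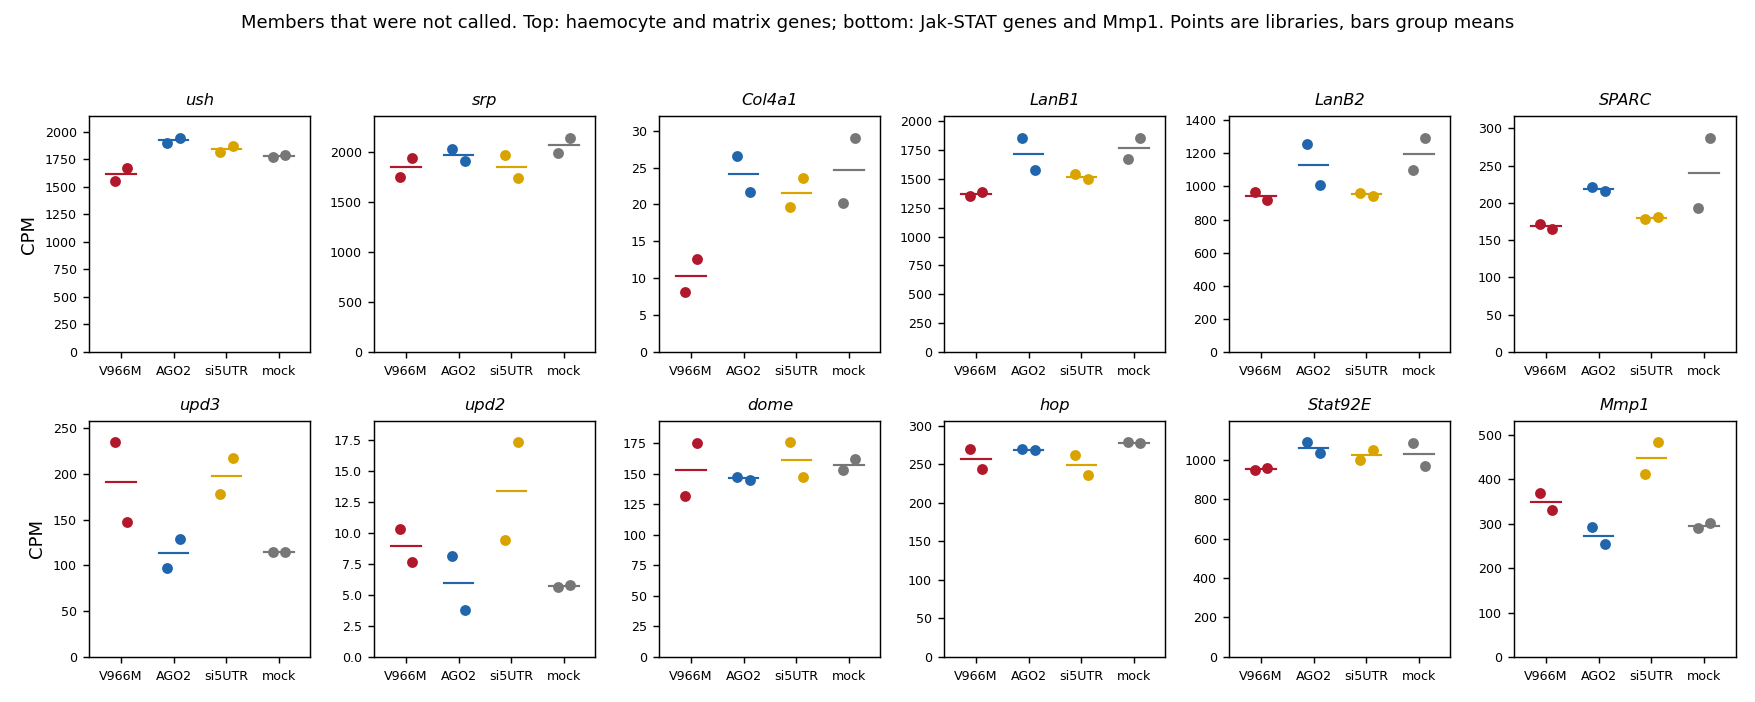
CPM in each library (points) and group mean (bars, n = 2) of 12 genes that were not called, in si5UTR+V966M, si5UTR+AGO2, si5UTR and mock from left to right. In the upper row both si5UTR+V966M libraries are the lowest for Col4a1 and LanB1, while in the lower row upd3 and Mmp1 are higher than in si5UTR+AGO2 and dome, hop and Stat92E lie close together.

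Pieces of the 28S rRNA repeat on the X chromosome differed in opposite directions. 28SrRNA-Psi:CR41609 (X from 23261772 to 23262666) had 1537 and 1370 CPM in si5UTR+V966M, against 412 and 445 CPM in si5UTR+AGO2, 326 and 456 CPM in si5UTR and 1352 and 458 CPM in mock. The log2 fold change was 1.76 (SE 0.258, edgeR adjusted p 0.00245), and 1 of the mock libraries lay just below the mutant ones. 28SrRNA-Psi:CR40741 (X from 23239718 to 23240975) had 624 and 410 CPM in si5UTR+V966M, against 1410 and 1111 CPM in si5UTR+AGO2, 722 and 582 CPM in si5UTR and 456 and 548 CPM in mock. The fitted change was -1.29 on the log2 scale (SE 0.146, edgeR adjusted p 7.51e-05), with the wildtype libraries above all others. Both genes stayed called without each library in turn. Of 14 rRNA genes and pseudogenes tested these 2 were called, against 0.16% of all genes. rRNA took 1.03% to 1.54% of the counts in si5UTR+V966M, against 0.728% to 1.12% in si5UTR+AGO2, 0.561% to 0.796% in si5UTR and 0.623% to 0.880% in mock. The copies are nearly identical, so reads may be shared among them and these values are uncertain.

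The remaining lower genes were eIF4EHP and CG41520. eIF4EHP, a cap-binding protein that represses translation (3R from 24063077 to 24108960), had 1033 and 1130 CPM in si5UTR+V966M, against 1349 and 1412 CPM in si5UTR+AGO2, 1306 and 1325 CPM in si5UTR and 996 and 917 CPM in mock. Here the mutant was near mock and the wildtype near the siRNA alone. On the log2 scale the difference was -0.35 (SE 0.0779, edgeR adjusted p 0.0978), and leaving out 1 library at a time ended the call in 6 of 8 cases (all but si5UTR+V966M replicate 3 and mock replicate 7). The gene overlaps Syx1A on its strand. CG41520 (2R from 1649061 to 1778937) had 206 and 208 CPM in si5UTR+V966M, against 232 and 903 CPM in si5UTR+AGO2, 190 and 270 CPM in si5UTR and 156 and 154 CPM in mock. The library si5UTR+AGO2 replicate 2 alone was high. Without it the log2 fold change of CG41520 was -0.17, against -1.46 (SE 0.313, edgeR adjusted p 0.0848) with all libraries, and its call was also lost without either si5UTR+V966M library or either si5UTR library and with DESeq2 (adjusted p 0.191).

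Set against the other groups, most called genes were placed alike by the group whose mean was nearer. For 10 of the 14 the mean in si5UTR+V966M was nearer to si5UTR and the mean in si5UTR+AGO2 nearer to mock, 6 of them higher (Gadd45, Socs36E, asRNA:CR46089, ImpL2, cv-2 and Tep4) and 4 lower (Pxn, Hml, Ppn and LanA). For these 4 lower genes the mutant libraries lay below si5UTR as well, and so not between si5UTR and mock. The 14 genes were chosen for a difference between the constructs, and the share of all genes placed this way was not counted. Against si5UTR, the fitted log2 fold change of Gadd45 was -0.02 (SE 0.160) with the mutant and -1.06 (SE 0.164) with the wildtype construct. For Socs36E these were -0.22 (SE 0.0899) and -0.71 (SE 0.0906), and for Pxn -0.19 (SE 0.0856) and 0.38 (SE 0.0857). Both differences share the si5UTR libraries, so they are given as values only.

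Next by p with no call, among genes at 5 CPM or more whose groups did not overlap, were AstA-R1, CG42553, upd3, CG43968 and w among the higher genes and Mnr, Sec5, rau and the identifiers FBgn0264255 and FBgn0267911 among the lower ones, at edgeR adjusted p of 0.108 to 0.125. AstA-R1, a receptor for the neuropeptide allatostatin A, had 40.5 and 31.6 CPM in si5UTR+V966M, against 16.4 and 16.9 CPM in si5UTR+AGO2, 42.1 and 46.6 CPM in si5UTR and 16.6 and 15.05 CPM in mock. It thus had the order of Gadd45 at a lower level. Sec5, a subunit of the exocyst, had 9.996 and 11.7 CPM in si5UTR+V966M, against 21.1 and 32.4 CPM in si5UTR+AGO2, 30.4 and 28.5 CPM in si5UTR and 26.9 and 19.1 CPM in mock. The eye pigment transporter gene w rested on 1 library, with 31.9 and 1.25 CPM in si5UTR+V966M against 1.22 and 0.918 CPM in si5UTR+AGO2, and it ranged from 5.51 to 26.8 CPM within mock. Without si5UTR+V966M replicate 2 the log2 fold change of w was 0.23, against 3.95 (SE 0.930, edgeR adjusted p 0.117) with all libraries.

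No gene of the siRNA pathway itself was called. Of 15 members tested, 0 passed the edgeR test in either direction, 8 had a log2 fold change above 0 and the median was 0.03. The dicing factor gene Dcr-2 had 165 and 179 CPM in si5UTR+V966M, against 174 and 155 CPM in si5UTR+AGO2 (log2 fold change 0.07, SE 0.128, edgeR adjusted p 0.943). For loqs and r2d2, which encode dsRNA-binding partners of the Dicers, the log2 fold changes were 0.53 (SE 0.225) and 0.37 (SE 0.206), with edgeR adjusted p of 0.513 and 0.616. The Hsp90 co-chaperone gene p23 had 303 and 293 CPM in si5UTR+V966M, against 263 and 210 CPM in si5UTR+AGO2 (log2 fold change 0.33, SE 0.129, edgeR adjusted p 0.453). At an unadjusted p under 0.05 the higher members were p23 and loqs (2 of 15, against 4.24% of all genes), and no member was lower. Hairpin RNAs that yield siRNAs are also cut by this pathway: hpRNA:CR33940 had 17.3 and 19.3 CPM in si5UTR+V966M, against 11.6 and 10.7 CPM in si5UTR+AGO2, 17.9 and 22.8 CPM in si5UTR and 10.1 and 11.1 CPM in mock. The mutant thus lay with si5UTR for this hairpin and the wildtype with mock, at a log2 fold change of 0.71 (SE 0.331, unadjusted p 0.0424, edgeR adjusted p 0.551). The other hairpins tested did not have this order. hpRNA:CR32207 had 3.49 and 4.64 CPM in si5UTR+V966M, against 6.63 and 2.25 CPM in si5UTR+AGO2, 10.3 and 13.1 CPM in si5UTR and 7.63 and 18.5 CPM in mock (log2 fold change -0.11, SE 0.559, edgeR adjusted p 0.990), and hpRNA:CR32205 was under 3 CPM in all 8 libraries. For CG8289, whose RNA is a described target of hairpin siRNAs, the log2 fold change was 0.03 (SE 0.128, edgeR adjusted p 0.985), and for ATPsynbeta, on the same list, it was -0.09 (SE 0.136, edgeR adjusted p 0.909).

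Genes that change when Dcr-2 or AGO2 is depleted were then followed in the comparison of the constructs. Lists were taken from knockdown of Dcr-2 by dsRNA against mock (Dcr-2 KD, with 107 genes up, 1.38% of those tested, and 49 down, 0.634%) and from knockdown of AGO2 by siRNA against mock (AGO2 KD, with 645 up, 7.92%, and 189 down, 2.32%), which came from other experiments and shared no library with the constructs. Of those 107, 90 (84.1%) had a log2 fold change above 0 in si5UTR+V966M against si5UTR+AGO2, compared with 48.6% of all genes tested. Their median was 0.24 (quartiles 0.08 and 0.44), against -0.0051 over all genes. Of the 7 genes called higher, 6 were among the 107 (5.61% of the list, against the 0.0802% of all genes), and these were Gadd45, Socs36E, asRNA:CR46089, ImpL2, cv-2 and Tep4. In Dcr-2 KD against mock, the log2 fold change was 0.98 for Gadd45 (SE 0.107, edgeR adjusted p 0.000379) and 0.84 for cv-2 (SE 0.0767, edgeR adjusted p 8.19e-05). Unadjusted p was under 0.05 and the change upward for 38 of the 107 (35.5%, against 4.24% of all genes). The same held downward for 1 (0.935%, against 4.59%). The 49 genes down in Dcr-2 KD ran the other way, with 41 below 0 and a median of -0.18. Of them 18 were lower at an unadjusted p under 0.05 (36.7%, against 4.59% of all genes), but 0 were called.

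For the AGO2 KD lists the shift was smaller. Of 643 tested genes up in AGO2 KD, 364 (56.6%) were above 0 and the median was 0.04. Of them 6 were called higher (0.933%) and 2 lower (0.311%), against 0.0802% of all genes in each direction. Of the 189 genes down in AGO2 KD, 123 were below 0 and the median was -0.10. The 3 called lower (1.59%, against 0.0802% of all genes) were Pxn, Hml and Ppn. The lists were then divided by their overlap. The 77 genes up in both (of 107 and of 643) had a median log2 fold change of 0.31 (66 above 0 and 6 called higher). The 566 genes up in AGO2 KD and not called up in Dcr-2 KD had a median of 0.01 (298 above 0, 0 called higher and 2 lower). The 30 genes up in Dcr-2 KD with no such call in AGO2 KD had a median of 0.09 (24 above 0 and 0 called). Of the 30, 3 were higher and 1 lower at an unadjusted p under 0.05, against 4.24% and 4.59% of all genes. A gene not called up in a knockdown may still change there, and the difference between the classes was not tested. The classes also differed in median gene length, at 6247.5 bp for the 77 genes, 14689 bp for the 566 and 2812 bp for the 30. With the length and GC correction the medians were 0.36 for the 77 genes, 0.08 for the 566 and 0.18 for the 30.

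The level of each list was then taken in each library. For the 77 genes up in both, the median log2 level against the mean of the 8 libraries was 0.16 and 0.03 in si5UTR+V966M, against -0.17 and -0.25 in si5UTR+AGO2, 0.25 and 0.45 in si5UTR and -0.19 and -0.15 in mock. The mutant libraries lay between the siRNA alone and the wildtype construct, which was at the mock level. For the 566 genes not called up in Dcr-2 KD it was 0.01 and 0.0029 in si5UTR+V966M, against 0.0038 and -0.02 in si5UTR+AGO2, 0.11 and 0.14 in si5UTR and -0.08 and -0.06 in mock. Here both constructs lay together, between si5UTR and mock. The 77 genes lay further apart between si5UTR and mock than the 566. The part of this in the difference between the classes was not tested. For the 49 genes down in Dcr-2 KD the median level was -0.11 and -0.11 in si5UTR+V966M, against 0.11 and 0.05 in si5UTR+AGO2. It was 0.02 and 0.01 in si5UTR and 0.0084 and 0.04 in mock, so that si5UTR and mock lay together. In this list the mutant libraries were below those of all other groups, and not between si5UTR and the wildtype construct.

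**Figure D5:**
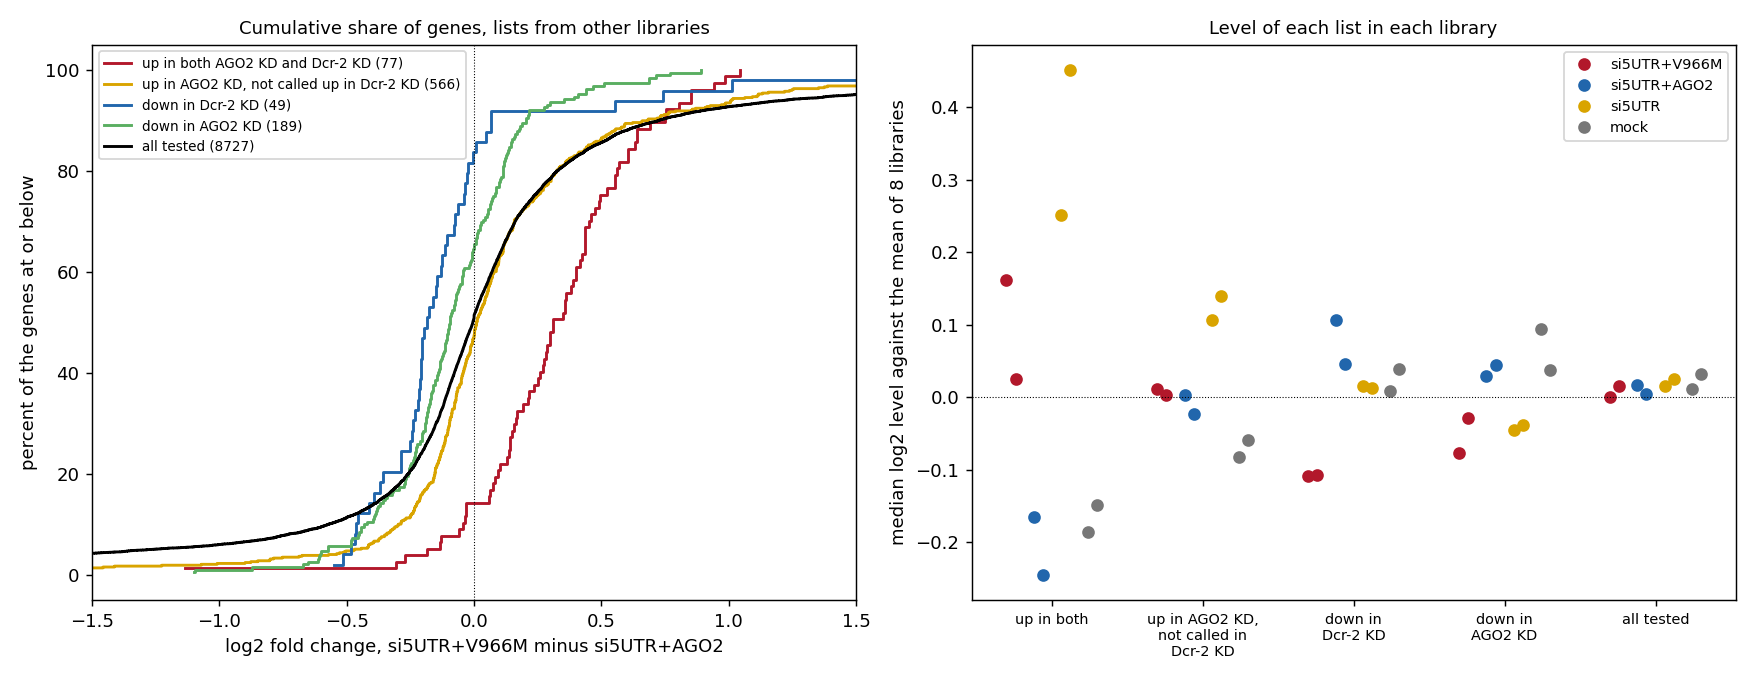
Left, cumulative percent of genes (vertical axis) by log2 fold change of si5UTR+V966M minus si5UTR+AGO2 (horizontal axis, drawn from -1.5 to 1.5) for lists called in other experiments and for all 8727 genes. Right, median log2 level of each list in each library against the mean of the 8 libraries. The 77 genes up in both knockdowns are shifted to the right, and the 566 genes not called up in Dcr-2 KD lie near all tested genes.

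The Dcr-2 KD list depended on 1 library of its own experiment: without mock replicate 10 it held 17 genes up (0.214% of those tested) and 1 down (0.0126%). Of these 17, 16 were above 0 in si5UTR+V966M against si5UTR+AGO2 with a median of 0.50, and Ets21C at -0.13 (SE 0.160) was the exception. The 1 gene down was at 0.74. With replicate 2 of both constructs left out, the median of the 107 genes was 0.15 and 78 were above 0. The 17 genes, named after their values were seen, held Gadd45, Socs36E, cv-2 and Tep4, which were called, and upd3 and Mmp1, given above. Others among them were p53, the tumour suppressor, with 120 and 114 CPM in si5UTR+V966M, against 106 and 71.2 CPM in si5UTR+AGO2 (log2 fold change 0.40, SE 0.167, edgeR adjusted p 0.499), and Arc1, a capsid gene derived from a retrotransposon, with 593 and 600 CPM in si5UTR+V966M, against 594 and 436 CPM in si5UTR+AGO2 (log2 fold change 0.21, SE 0.122, edgeR adjusted p 0.629). The p53 libraries did not overlap between the constructs, and those of Arc1 did.

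Across all genes, the fold changes correlated only weakly with those of either knockdown, and r was higher where genes had more reads. Pearson's r between the log2 fold changes of si5UTR+V966M against si5UTR+AGO2 and of Dcr-2 KD against mock was 0.0481 over 7681 genes and 0.205 over the 3840 above the median in mean count. With AGO2 KD against mock it was 0.0530 over 8012 genes and 0.182 over 4006. Each gene has the same weight in r, so noise in genes with few reads can lower it. The r over all genes thus cannot show how far the profiles resembled each other. Genes in 1 sample are not replicates of each other, and all points of a comparison come from the same libraries.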

How the data were processed

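The authors trimmed reads with cutadapt 1.10, mapped them to dm6 with HISAT2 2.0.4 and assigned them to whole genes, introns included and strand kept, with featureCounts 1.5.0-p3, per the labels and the methods of the study. The deposited values are raw read counts per gene for 17659 identifiers, of which 17464 matched an annotated symbol. The 8 libraries of the rescue experiment were fitted together with treatment as the only term in edgeR 4.0.16 (R 4.3.3), with TMM normalisation and filterByExpr. The quasi-likelihood F test was used, p-values were adjusted by Benjamini-Hochberg over 8727 genes, and genes under 0.1 were called. The SE is the log2 fold change divided by the square root of F. CPM are scaled by TMM. DESeq2 1.42.0 was an alternative. Both were run on simulated counts that did not model the libraries that stood apart, and the recovery is not given here. Libraries were left out with the 8727 genes kept.

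The study called genes with DESeq2 at the same threshold. It shows the rescues for genes changed by the siRNA relative to mock, and describes no direct test between the constructs. The study reports that the mutant rescued extensively, much as the wildtype did. It concludes that AGO2 attenuates transcription without need of the RNA interference pathway. Lists from Dcr-2 KD and AGO2 KD were made by the same edgeR test within their own experiments and their own mock libraries. Named genes were AGO2, RpL32, every called gene, the genes next by p (mean 5 CPM or more, groups apart) until 12 in each direction were reached, and the tested siRNA pathway genes. Members and lists were chosen with earlier results of these data known. Alternatives were RLE size factors, no filter, DESeq2, an adjusted p under 0.05, the 4 libraries alone, rRNA and mitochondrial genes left out, an offset for gene length and GC, and each library left out in turn. Leaving out replicate 2 of both constructs, leaving out mock replicate 10 behind the Dcr-2 KD list, and a replicate block over the 6 libraries with the siRNA were added after the data were seen. Reads carried no molecular identifiers, so copies made by PCR count as reads. The codon and gene starts were read from the RefSeq assembly of the dm6 build.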

Additional observations from a re-analysis of the deposited data

How the results depend on the processing

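The counts of higher and lower genes were 52 and 35 with no filter, where the estimated prior degrees of freedom were infinite against 18.9 with the filter, 22 and 64 with DESeq2, 2 and 2 with the 4 libraries alone, and 11 and 13 with rRNA and mitochondrial genes left out. The length and GC correction gave 2 lower genes, and an adjusted p under 0.05 gave 4. With 1 library left out, the counts ran from 1 to 46 higher and from 4 to 72 lower, and with replicate 2 of both constructs left out (chosen after seeing the data) 1 gene was higher. In that last fit and wherever a group held 1 library, it was assumed to vary like the other groups. The median of the genes up in AGO2 KD was 0.10 with the length and GC correction, 0.018 to 0.056 with 1 library left out and 0.0071 without both replicates 2. For genes down in AGO2 KD the values were -0.058, -0.14 to -0.070 and -0.060 in the same order. For genes up in Dcr-2 KD it was 0.15 without both replicates 2 and 0.50 with the list made without mock replicate 10, and for genes down in Dcr-2 KD -0.10 with the correction and 0.74 (1 gene) with that list. Over 220 refits of single called genes with an adjusted p, 152 kept the call, 68 lost it and 0 reversed. Other causes were not tested. The constructs share only replicate number 2. For libraries of that number, Pearson's r of deviations from the group mean was 0.0159 between the constructs, and 0.0318 and -0.0045 with si5UTR. Genes with few reads count equally in r and their noise can pull it toward 0. These values thus cannot show whether the libraries were paired. A fit with the replicate number as a block over the 6 libraries with the siRNA, added after seeing the data, leaves 1 residual degree of freedom and takes nothing from si5UTR+AGO2 replicate 1. It called 38 higher and 19 lower genes, 10 of the 14 among them (not Hml, Ppn, LanA and eIF4EHP), against 9 and 6 for the same libraries without the block, and the median of the genes up in AGO2 KD was 0.062.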

Other observations

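Other groups of genes gave few or no calls between the constructs. Of 79 cytosolic ribosomal protein genes tested, 52 were below 0 with a median log2 fold change of -0.07. Of them 9 were lower at an unadjusted p under 0.05, against 4.59% of all genes. Of 19 genes of the nuclear lamina and insulators, 14 were above 0 with a median of 0.10. For 18 heat shock and chaperone genes and 28 genes of DNA replication and the cell cycle the medians were -0.11 and 0.04. The microRNA pathway (15 tested, median -0.02), the piRNA pathway (16, -0.04), Toll and Imd immunity (23, -0.0053), Pol II pausing and elongation (9, -0.10), the mitochondrial genome (16, 0.16), histone genes (5, 0.13) and snRNA and snoRNA genes (12, -0.07) also held 0 calls. So did the nht domain and spermatogenesis genes (4, 0.18), crystal cell and lamellocyte markers (4, -0.15) and germline and testis markers (5, -0.13). At an unadjusted p under 0.05, edgeR gave 0 lower and 0 higher in the microRNA pathway and in Toll and Imd immunity.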
